A study of Mus musculus with 20 samples.

Results

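The genes of transforming growth factor β (TGF-β) and bone morphogenetic protein (BMP) signalling were followed in mouse tibiae after dexamethasone and mechanical loading. They were chosen by name, as 50 of the 54446 genes in the expected-count table: 3 TGF-β ligands, 3 TGF-β receptors, 4 latent TGF-β binding proteins, 11 BMP, growth differentiation factor (GDF) and activin ligands, 8 BMP and activin receptors with endoglin, 9 antagonists and modulators, 6 receptor Smads with Smad4, 2 inhibitory Smads and 4 Id genes. All 50 were found by gene symbol, and all 50 had enough counts to be tested in each comparison.

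The tissue was the tibia of 3-month-old male C57BL/6J mice, pulverised frozen. The study describes it as cortical bone with periosteum, and the labels name no removal of other tissue. Markers of neutrophils, B lineage cells, cartilage and skeletal muscle were present in every library, so RNA of other tissues was sequenced together with that of bone. Mice received dexamethasone (DEX), a synthetic glucocorticoid, at 1 mg/kg subcutaneously for 5 days, or water for injection as the vehicle. Axial loading of the left tibia used -13 N and 40 cycles in each session, on days 1 and 3 as the labels give it. The study's text instead describes more sessions, the last of them a few hours before the tibiae were frozen, so the time from the last loading to harvest is uncertain for every loading value. The unloaded tibiae were the opposite limbs of these animals, as the methods of the study describe. The labels give 4 groups of 5 libraries, namely vehicle-treated unloaded, vehicle-treated loaded, DEX-treated unloaded and DEX-treated loaded, and 1 DEX-treated unloaded library (replicate 4) was left out of the fits, as explained in the methods. No label ties a replicate number to a mouse or names a batch.

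TGF-β is secreted bound to its propeptide and stored in the matrix through latent TGF-β binding proteins, and bone is among its largest stores. Once released, TGF-β binds a type II receptor that activates a type I receptor, which phosphorylates Smad2 and Smad3, whereas BMPs signal through their own receptor pairs to Smad1, Smad5 and Smad9, and both branches need Smad4. BMPs drive osteoblast differentiation and are held in check outside the cell by secreted antagonists and inside it by Smad6 and Smad7, and the Id genes are classic transcriptional targets of the BMP branch.

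Library totals ran from 4641437 to 13032018 counts, and the lowest was replicate 4 of the DEX-treated loaded group. The summed level of 1731 olfactory and vomeronasal receptor genes, which bone does not use and which therefore gives a level of background reads, was 338 to 1238 counts per 1000000 (CPM) of the library total in the vehicle-treated unloaded libraries and 228 to 885 CPM in the vehicle-treated loaded ones. It was 789 to 3161 CPM in the DEX-treated unloaded libraries and 1062 to 8611 CPM in the DEX-treated loaded ones, highest in that same shallow library. Bone markers were present in every library, and in loaded tibiae DEX raised 2 of 5 known glucocorticoid-induced genes, Fkbp5 with a log2 fold change of 0.87 and Zbtb16 with 1.01. In unloaded tibiae 0 of these 5 rose and 1, Sgk1, fell by 0.63 on the log2 scale, whereas with plain library totals in place of the normalisation used here 1 of the 5 was higher and 0 lower.

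The levels of members and markers are CPM of a normalised total, which is the library total times its TMM factor (trimmed mean of M values). That factor was 0.817 to 0.978 in the vehicle-treated and 1.001 to 1.502 in the DEX-treated libraries, so that the normalisation itself lowers DEX levels relative to CPM of the plain library total.

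In vehicle-treated unloaded tibiae the members spanned 132-fold in level per exon length. Fstl1 was highest at 58.5 ± 34.9 CPM per kb (SD, n = 5), followed by Id3 at 34.2 ± 5.7 and Tgfb1 at 29.6 ± 5.4, and the SD of Fstl1 was wide enough to reach both. Tgfb3, Tgfbr2, Tgfb2 and Bmp3, the BMP most abundant in bone matrix, lay between 25.5 and 20.8 CPM per kb. The lowest were Chrd at 1.10, Bmpr1b at 0.47 and Gdf5 at 0.44 CPM per kb, and the counts behind Gdf5 ran from 2 to 20 and behind Bmpr1b from 10 to 48 per library of this group, so that little could be detected for either.

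**Figure D1:**
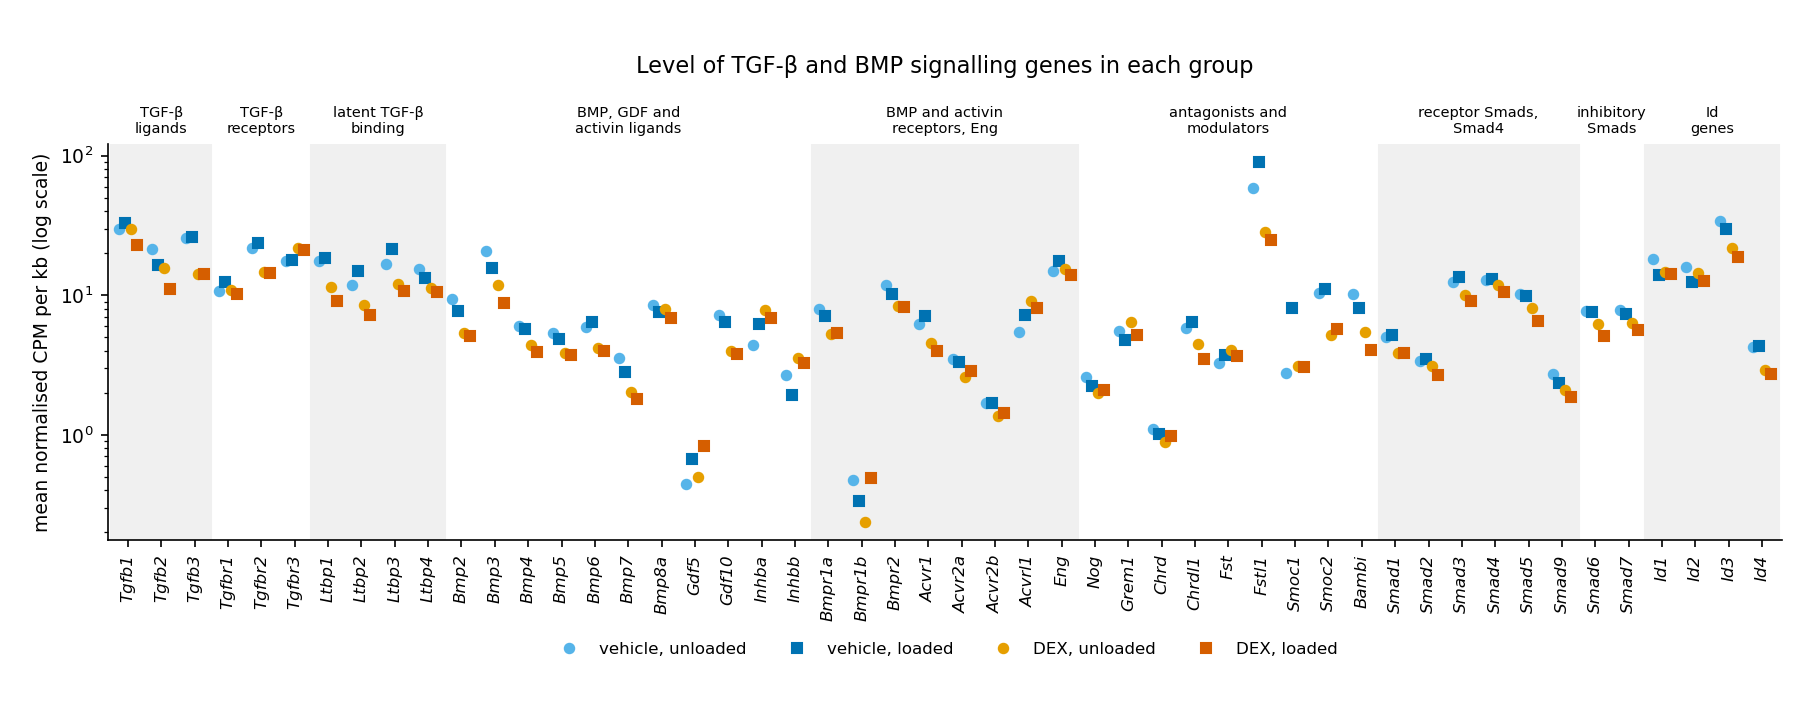
Mean TMM-normalised CPM per kb of exon (log axis) of the 50 members in each of the 4 groups, arranged by role. In vehicle-treated unloaded tibiae Fstl1 is highest at 58.5 and Gdf5 lowest at 0.44, and in the TGF-β latency and antagonist roles several DEX means (orange) lie below the vehicle means (blue).

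The largest number of changes came with DEX. In loaded tibiae 14 of the 50 members passed an adjusted p of 0.05 (edgeR quasi-likelihood test, adjusted over all genes tested), against 21.3% of all 19780 genes. Of these, 13 were lower in DEX, against 8.35% of all genes, and 1 was higher, against 12.9%. In unloaded tibiae 7 members passed, against 6.84% of 19738 genes, with 6 lower, against 3.99%, and 1 higher, against 2.86%. The members' share in either direction, 28% in loaded and 14% in unloaded tibiae, was thus near that of all genes in loaded tibiae, where the members differed from all genes mainly in their direction. The median log2 fold change over the members was -0.30 in loaded and -0.32 in unloaded tibiae, beside 0.00 and 0.03 over all genes tested. Among the 5604 genes at or above the members' median level the medians were -0.21 and -0.06, with 153 genes higher and 890 lower in loaded tibiae and 240 higher and 370 lower in unloaded tibiae.

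The direction depended on the scaling. With plain library totals in place of TMM, an alternative chosen after the values were seen, the median over all genes moved to 0.28 in loaded and 0.32 in unloaded tibiae, and that over the members to -0.01 and -0.04. The members passing were then 5 lower and 2 higher in loaded tibiae, against 24.5% of all genes in either direction, and 1 lower and 6 higher in unloaded tibiae, against 16.8%. Of the 14 loaded calls Ltbp1, Ltbp2, Ltbp3, Fstl1, Bambi and Inhbb still passed, and of the 7 unloaded calls Smoc2 and Inhba. None of the members called with TMM changed sign. The decreases described below are relative to the TMM scale.

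In total 5 members fell in both limb states, namely Tgfb3, Tgfbr2, Ltbp1, Smoc2 and Bambi. They were 35.7% of the loaded calls and 71.4% of the unloaded calls, and the loaded and unloaded comparisons share no library but do share animals. The share of all genes called in both limb states was not computed, so these percentages have no background beside them. With plain library totals Smoc2 was the only member called lower in unloaded tibiae, and it did not pass in loaded ones. The difference between the DEX effects of the limb states, which is the interaction with loading, passed for 0 of the 50 members.

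Without any overlap between the groups' normalised CPM, 14 members were lower and 0 higher in the loaded comparison, against 17.9% of all genes in either direction, and 12 were lower and 0 higher in the unloaded one, against 10.9%. With CPM of plain library totals 3 were lower (Ltbp1, Fstl1 and Bambi) and 1 higher (Inhbb) in the loaded comparison, against 15.8%, and 1 was lower (Smoc2) and 5 higher (Tgfbr1, Tgfbr3, Inhba, Inhbb and Fst) in the unloaded one, against 17.4%. On the TMM scale, beyond the members that passed the test, these were Bmp7, Gdf10, Smad1 and Id4 in loaded tibiae and Bmp6, Bmpr1a, Bmpr2, Acvr2a, Smad5 and Id3 in unloaded tibiae. The 14 members of the loaded comparison were still the same 14 without replicate 4 of the DEX-treated loaded group.

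**Figure D2:**
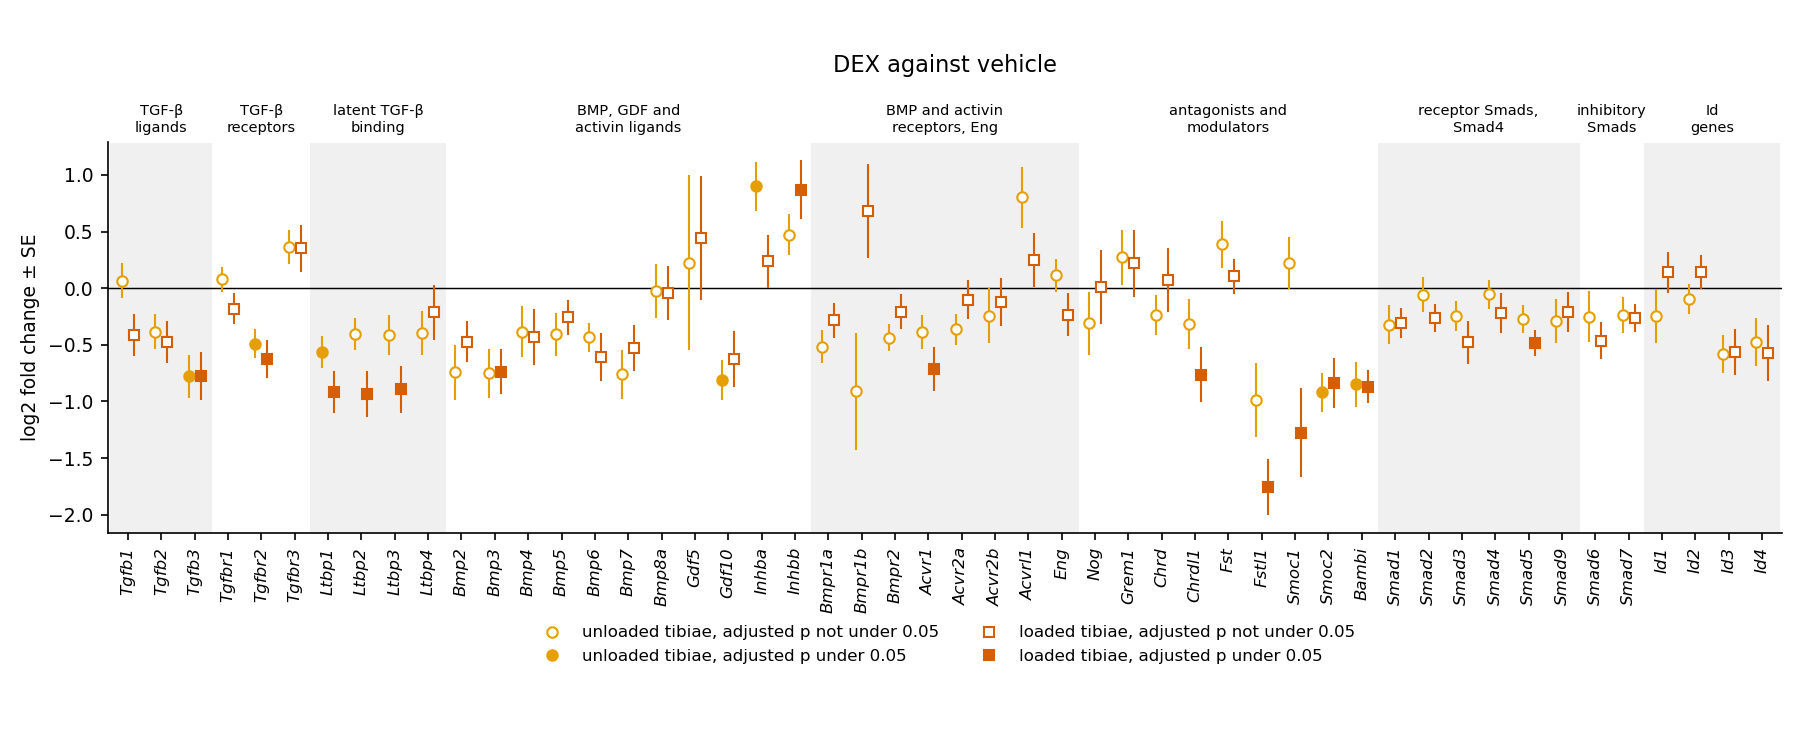
Log2 fold change of DEX against vehicle with its SE (y axis) for the 50 members by role, in unloaded (circles) and loaded (squares) tibiae, filled where the adjusted p was under 0.05. The filled symbols are 6 lower and 1 higher in unloaded and 13 lower and 1 higher in loaded tibiae, and Fstl1 in loaded tibiae is the lowest at -1.75.

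Library values are given below in CPM in the order of replicates 1, 2, 4, 5 and the unnumbered one for both vehicle groups, 1, 2, 3 and 5 for DEX-treated unloaded tibiae and 1 to 5 for DEX-treated loaded tibiae. These CPM are TMM-normalised over all 20 libraries, whereas the fold changes carry the TMM factors of the libraries in each fit.

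Among the TGF-β ligands, Tgfb3 (ENSMUSG00000021253.7, chr12:86056745-86079041, minus strand) fell in both limb states. Tgfb3 was at 64.9, 68.2, 134, 84.4 and 79.7 CPM in vehicle-treated unloaded tibiae and at 48.4, 47.5, 47.02 and 48.9 CPM with DEX. In loaded tibiae its values were 116, 76.4, 85.5, 65.1 and 97.3 CPM with vehicle and 63.2, 58.8, 51.5, 34.4 and 30.5 CPM with DEX. Every DEX value lay below every vehicle value of its limb state, and the 4 unloaded DEX libraries were nearly equal. The log2 fold change was -0.78 ± 0.19 (SE, adjusted p = 0.0326) in unloaded and -0.77 ± 0.21 (adjusted p = 0.0243) in loaded tibiae. Tgfb1, the ligand most abundant per length, had log2 fold changes of 0.07 ± 0.15 and -0.41 ± 0.18, and Tgfb2 of -0.38 ± 0.15 and -0.48 ± 0.19, and neither passed in either limb.

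The ligand-binding type II receptor gene Tgfbr2 (ENSMUSG00000032440.13, chr9:116084293-116175360, minus strand) fell as well. Tgfbr2 was at 155, 160, 206, 182 and 186 CPM in unloaded vehicle-treated tibiae and at 132, 129, 107 and 116 CPM with DEX. The corresponding loaded values were 215, 188, 169, 206 and 198 CPM and 149, 144, 115, 83.9 and 94.8 CPM. Neither limb state had an overlap, and the log2 fold changes were -0.49 ± 0.13 (adjusted p = 0.0403) and -0.62 ± 0.17 (adjusted p = 0.0216). The type I receptor gene Tgfbr1 (0.08 ± 0.11 and -0.18 ± 0.14) and the co-receptor gene Tgfbr3, betaglycan (0.36 ± 0.15 and 0.35 ± 0.21), did not pass.

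Of the 4 latent TGF-β binding protein genes, 3 fell in loaded and 1 in unloaded tibiae. Ltbp1 (ENSMUSG00000001870.15, chr17:75005568-75392512, plus strand), whose product tethers latent TGF-β to the matrix, was at 175, 175, 188, 200 and 203 CPM in unloaded vehicle-treated tibiae and 117, 159, 104 and 107 CPM with DEX. Its loaded values were 234, 207, 180, 169 and 194 CPM and 94.4, 144, 106, 61.97 and 78.7 CPM. The groups did not overlap in either limb, although the highest DEX libraries came near the vehicle range, and the log2 fold changes were -0.56 ± 0.14 (adjusted p = 0.0342) and -0.92 ± 0.18 (adjusted p = 0.0081).

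Ltbp2 (ENSMUSG00000002020.15, chr12:84783212-84876532, minus strand), a fibrillin-associated relative that does not bind latent TGF-β, was at 173, 101, 115, 87.6 and 133 CPM in loaded vehicle-treated tibiae and 63.1, 76.8, 66.9, 36.3 and 53.3 CPM with DEX. Ltbp3 (ENSMUSG00000024940.10, chr19:5740904-5758532, plus strand), which binds latent TGF-β in bone and cartilage, was at 261, 186, 161, 142 and 224 CPM and 103, 136, 102, 56.9 and 90.6 CPM. Both were lower in every DEX library, with log2 fold changes of -0.93 ± 0.20 (adjusted p = 0.0103) and -0.89 ± 0.21 (adjusted p = 0.0135). In unloaded tibiae Ltbp2 (-0.41 ± 0.14) and Ltbp3 (-0.42 ± 0.18) did not pass, and Ltbp4 did not pass in either limb (-0.40 ± 0.19 and -0.21 ± 0.24). Exons of Ltbp2, Ltbp3 and Tgfb3 overlap annotated transcripts on the opposite strand. Whether counting used strand is not given in the sources used here.

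The 250 bases upstream of Ltbp1 (chr17:75005279-75005528, plus strand) and Tgfbr2 (chr9:116175364-116175613, minus strand) are shown because these genes fell together in both limbs and had an entry among the RefSeq promoters (GRCm38.p6), which covered 33 of the 50 members. Capitals mark the Smad-binding letters CAGAC or their reverse complement GTCTG.
Ltbp1: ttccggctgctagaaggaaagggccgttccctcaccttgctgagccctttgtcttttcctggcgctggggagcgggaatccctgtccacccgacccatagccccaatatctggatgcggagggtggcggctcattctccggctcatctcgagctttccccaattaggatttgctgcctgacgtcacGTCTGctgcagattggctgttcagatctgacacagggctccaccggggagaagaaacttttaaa
Tgfbr2: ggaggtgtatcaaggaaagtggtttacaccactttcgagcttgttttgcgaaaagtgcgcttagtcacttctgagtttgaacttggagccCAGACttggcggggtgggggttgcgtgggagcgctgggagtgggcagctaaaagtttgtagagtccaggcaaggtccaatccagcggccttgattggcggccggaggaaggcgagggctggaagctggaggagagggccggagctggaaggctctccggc
Each of these windows held the Smad-binding letters at 1 place, and such a match occurred in 15 of the 33 members (45.5%) and in 42.1% of 27025 promoter windows of this length. Neither held the hexamer TGTTCT or its reverse complement AGAACA, a unit of glucocorticoid receptor binding sites, which was in 16.2% of all windows and in 2 of the 33 members, Bmpr2 and Smad6. The letters GGCGCC, a BMP Smad motif, were in neither window, in 8 of the 33 members (24.2%) and in 9.54% of all windows. All motifs were searched on both strands, and they do not overlap one another.

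The BMP, GDF and activin ligands moved in different directions. Gdf10 (ENSMUSG00000021943.7, chr14:33923587-33937983, plus strand), a BMP3-related ligand, was at 30.04, 43.7, 37.3, 36.5 and 41.7 CPM in unloaded vehicle-treated tibiae and 26.7, 23.03, 15.9 and 16.9 CPM with DEX. Its loaded values were 35.4, 31.1, 34.5, 33.1 and 32.6 CPM and 28.1, 21.1, 14.5, 25.5 and 9.64 CPM. It was lower in all DEX libraries of both limb states, but the test passed only for unloaded tibiae, at -0.81 ± 0.18 (adjusted p = 0.0228), against -0.63 ± 0.25 (adjusted p = 0.0835) in loaded ones.

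Bmp3 (ENSMUSG00000029335.5, chr5:98854415-98884396, plus strand) passed in loaded tibiae, where it went from 104, 138, 103, 123 and 116 CPM to 82.1, 87.2, 69.1, 45.9 and 40.3 CPM without overlap and its log2 fold change was -0.74 ± 0.20 (adjusted p = 0.0235). In unloaded tibiae the estimate was alike, -0.75 ± 0.22 (adjusted p = 0.0578), but the highest DEX library, at 124 CPM, exceeded the lowest vehicle library, at 121 CPM. Bmp2, a strong inducer of bone formation, and Bmp7 had unloaded log2 fold changes of -0.74 ± 0.24 and -0.76 ± 0.22 and loaded ones of -0.47 ± 0.18 and -0.53 ± 0.20, and neither passed. The other BMP ligands, Bmp4, Bmp5, Bmp6 and Bmp8a, lay between -0.43 and -0.02 in unloaded and between -0.60 and -0.04 in loaded tibiae without passing, and the joint ligand Gdf5 was too low to judge.

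The 2 members that rose with DEX encode the activin β subunits, whose dimers signal through Smad2 and Smad3. Inhba (ENSMUSG00000041324.14, chr13:16011851-16031621, plus strand), the subunit of activin A, was at 27.3, 22.1, 36.8, 26.1 and 28.1 CPM in unloaded vehicle-treated tibiae and 33.6, 38.2, 57.9 and 69.8 CPM with DEX, so that 3 of 4 DEX libraries lay above all vehicle libraries. The log2 fold change was 0.90 ± 0.22 (adjusted p = 0.0312). In loaded tibiae Inhba was at 44.2, 32.97, 43.9, 25.6 and 52.7 CPM with vehicle and 32.1, 35.3, 48.3, 31.4 and 71.7 CPM with DEX, overlapping widely, and the log2 fold change of 0.24 ± 0.23 did not pass.

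Inhbb (ENSMUSG00000037035.5, chr1:119415465-119422248, minus strand), the subunit of activin B, was at 8.83, 9.18, 5.01, 8.84 and 9.39 CPM in loaded vehicle-treated tibiae and 21.3, 16.1, 8.40, 13.6 and 10.3 CPM with DEX. Replicate 3 of the DEX-treated group fell inside the vehicle range and the other 4 above it, and the log2 fold change was 0.87 ± 0.26 (adjusted p = 0.0323). The unloaded values were 8.04, 13.5, 12.05, 11.9 and 11.8 CPM and 13.3, 20.4, 14.3 and 12.9 CPM, with a log2 fold change of 0.47 ± 0.18 that did not pass. Leaving out any 1 of 6 libraries ended the call in loaded tibiae, namely vehicle-treated replicates 1, 2, 4 and the unnumbered one or DEX-treated replicates 1 and 4.

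The 250 bases upstream of Inhba (chr13:16011601-16011850, plus strand) and Inhbb (chr1:119422249-119422498, minus strand) are shown for comparison with the promoters of the genes that fell.
Inhba: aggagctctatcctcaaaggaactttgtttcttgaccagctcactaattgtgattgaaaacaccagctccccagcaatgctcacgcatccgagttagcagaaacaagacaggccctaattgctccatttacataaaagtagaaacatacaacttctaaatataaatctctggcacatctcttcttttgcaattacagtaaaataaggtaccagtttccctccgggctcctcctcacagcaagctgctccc
Inhbb: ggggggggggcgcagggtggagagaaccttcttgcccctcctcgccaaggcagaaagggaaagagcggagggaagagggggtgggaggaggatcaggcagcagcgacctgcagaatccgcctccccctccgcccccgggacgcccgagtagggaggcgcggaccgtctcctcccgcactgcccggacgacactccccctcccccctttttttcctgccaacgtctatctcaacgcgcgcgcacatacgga
No capitals appear because neither window held any of the 3 motifs.

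Of the 8 BMP and activin receptor genes, 1 passed. Acvr1, a type I BMP receptor, fell in loaded tibiae, at -0.71 ± 0.19 (adjusted p = 0.0226), where the DEX libraries ran from 13.8 to 28.7 CPM and the vehicle libraries from 27.8 to 45.3 CPM. In unloaded tibiae the type I receptor gene Bmpr1a (-0.52 ± 0.15, adjusted p = 0.0538) and the type II receptor gene Bmpr2 (-0.44 ± 0.12, adjusted p = 0.0508) lay just outside the threshold with no overlap. The endothelial type I receptor gene Acvrl1 had the largest positive estimate of this role in unloaded tibiae, 0.80 ± 0.27, and 0.25 ± 0.24 in loaded ones, neither of which passed. Bmpr1b, Acvr2a, Acvr2b and the co-receptor gene Eng did not pass in either limb.

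Among the 9 antagonists and modulators, 5 fell in loaded and 2 in unloaded tibiae. Fstl1 (ENSMUSG00000022816.11, chr16:37776873-37836514, plus strand), a secreted glycoprotein of mesenchymal cells that binds TGF-β family ligands, showed the largest decrease. Fstl1 was at 677, 326, 317, 383 and 506 CPM in loaded vehicle-treated tibiae and 121, 176, 136, 87.2 and 88.9 CPM with DEX, a mean 27.6% of the vehicle mean. The unloaded values were 175, 190, 589, 255 and 228 CPM and 150, 175, 127 and 102 CPM. The loaded groups were far apart, whereas the unloaded groups touched at 175 CPM. The log2 fold change was -1.75 ± 0.25 (adjusted p = 0.00142) in loaded and -0.98 ± 0.33 (adjusted p = 0.0912) in unloaded tibiae.

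Bambi (ENSMUSG00000024232.1, chr18:3507923-3516404, plus strand), a pseudoreceptor that lacks a kinase domain and dampens TGF-β and BMP signals, fell in both limb states. Bambi was at 32.4, 58.7, 54.9, 42.3 and 71.1 CPM in unloaded vehicle-treated tibiae and 27.7, 32.3, 24.99 and 25.01 CPM with DEX. Its loaded values were 38.7, 47.4, 40.4, 32.99 and 45.3 CPM and 22.8, 25.5, 21.8, 17.8 and 15.7 CPM. No DEX library reached a vehicle library of its limb state, though in unloaded tibiae the gap was only 32.3 against 32.4 CPM. The log2 fold changes were -0.85 ± 0.20 (adjusted p = 0.0284) and -0.87 ± 0.15 (adjusted p = 0.00313).

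Smoc2 (ENSMUSG00000023886.10, chr17:14279506-14404790, plus strand), a calcium-binding matrix protein of the same family as the BMP antagonist Smoc1, also fell in both. Smoc2 was at 63.4, 61.3, 102, 64.1 and 68.7 CPM in unloaded vehicle-treated tibiae and 44.01, 35.1, 32.1 and 33.8 CPM with DEX. Its loaded values were 99.7, 56.3, 72.3, 63.5 and 94.9 CPM and 54.4, 43.8, 46.6, 30.3 and 25.2 CPM. The groups did not overlap in either limb, and the log2 fold changes were -0.92 ± 0.17 (adjusted p = 0.0139) and -0.83 ± 0.22 (adjusted p = 0.0209). Smoc2 was the member with the lowest adjusted p in unloaded tibiae.

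Chrdl1, a chordin-like BMP antagonist, passed in loaded tibiae at -0.76 ± 0.24 (adjusted p = 0.0401), with DEX libraries from 14.6 to 35.1 CPM and vehicle libraries from 33.7 to 51.3 CPM. That call was lost without vehicle-treated replicate 1, 2 or the unnumbered one and without DEX-treated replicate 3, 4 or 5. The classic antagonists Nog (0.01 ± 0.33), Grem1 (0.22 ± 0.30) and Chrd (0.07 ± 0.28) and the activin-binding Fst (0.10 ± 0.15) did not pass in loaded tibiae, and the same 4 did not pass in unloaded tibiae, where they ran from -0.31 for Nog to 0.39 for Fst.

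Of the 12 intracellular members 1 passed. All 6 receptor Smads, counting Smad4, had log2 fold changes below 0 in both limbs, against 4 in loaded and 2 in unloaded tibiae with plain library totals, and the one that passed was Smad5 of the BMP branch, at -0.48 ± 0.11 (adjusted p = 0.0145) in loaded tibiae, where DEX libraries ran from 40.7 to 56.2 CPM and vehicle libraries from 65.1 to 87.8 CPM. The TGF-β branch genes Smad2 and Smad3 had -0.26 ± 0.12 and -0.48 ± 0.19 in loaded tibiae, and Smad4 had -0.22 ± 0.17. The inhibitory Smad6 (-0.46 ± 0.16) and Smad7 (-0.26 ± 0.12) did not pass. The Id genes had estimates on both sides of 0 in loaded tibiae, with Id1 (0.14 ± 0.18) and Id2 (0.14 ± 0.15) above 0 and Id3 (-0.56 ± 0.21, adjusted p = 0.066) and Id4 (-0.57 ± 0.25) below it, and 0 of the 4 passed in either limb.

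**Figure D3:**
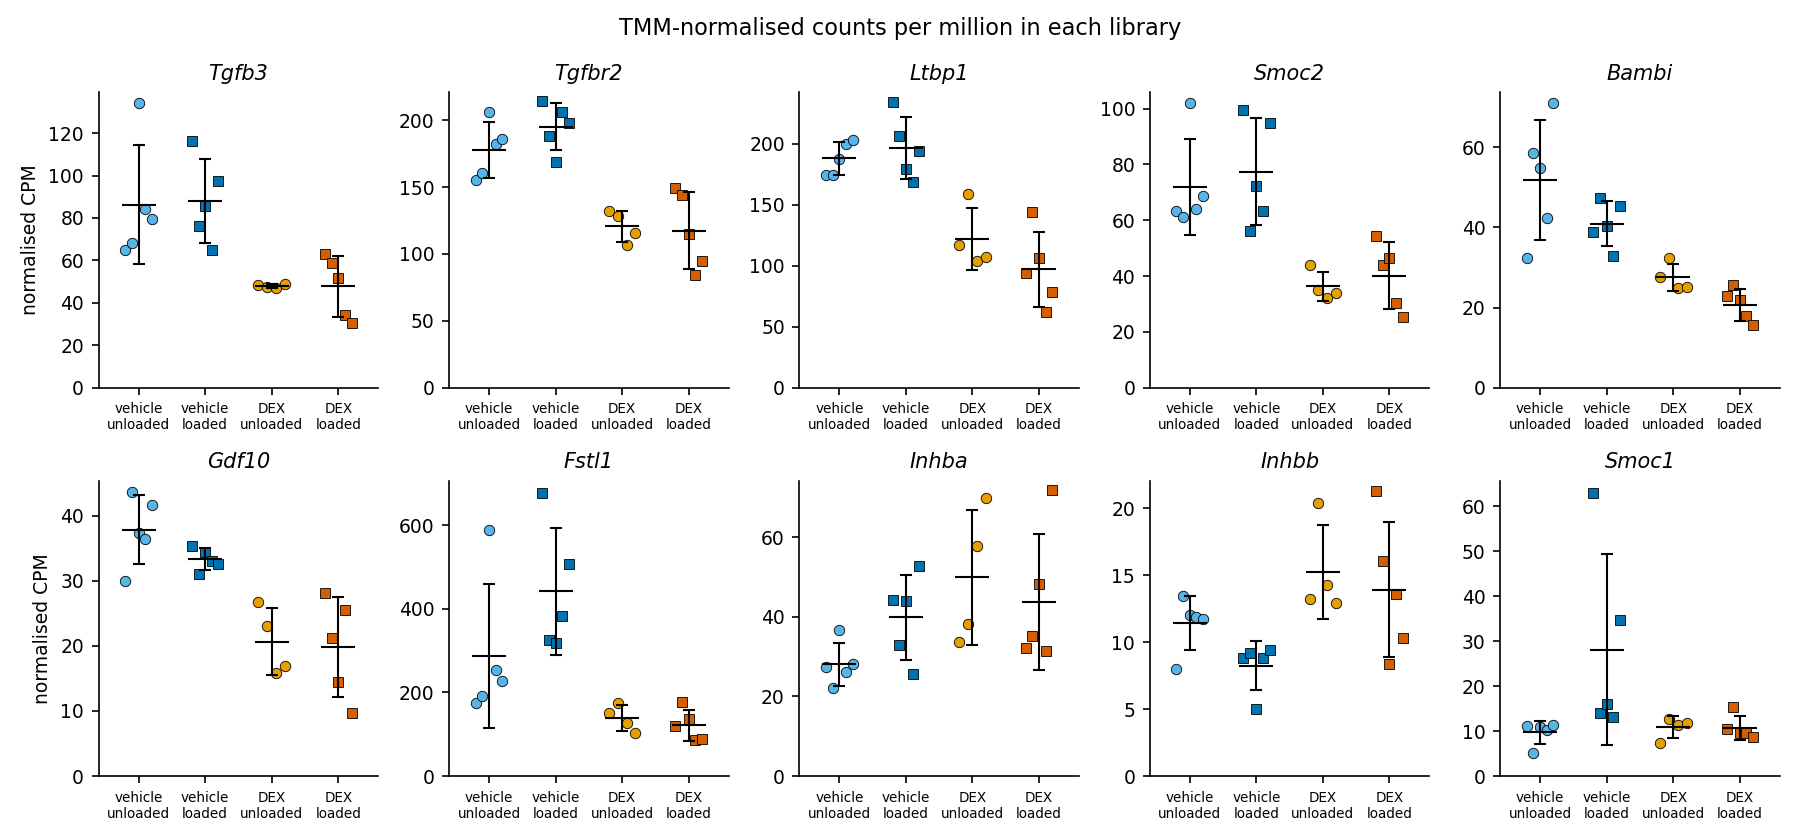
TMM-normalised CPM of 10 members in each library (points) with the group mean and SD (bars), each y axis from 0. Tgfb3, Tgfbr2, Ltbp1, Smoc2, Bambi and Gdf10 have every DEX point below the vehicle points of the same limb state, Inhba and Inhbb are higher with DEX on average, and Smoc1 is high in loaded vehicle-treated replicate 1 at 62.8.

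The cell type markers moved with these genes. In loaded tibiae DEX lowered 7 of 9 osteoblast, 10 of 11 tested chondrocyte, 6 of 8 periosteum and tendon fibroblast and 6 of 7 B lineage markers, and 4 of 6 osteocyte markers fell while 1 rose. It raised 7 of 8 neutrophil markers. In unloaded tibiae 5 of 9 osteoblast, 3 of 5 tested osteocyte, 4 of 8 periosteum and tendon and 3 of 7 B lineage markers fell, 6 of 8 neutrophil markers rose and 0 of 10 tested chondrocyte markers passed. Of the endothelial markers 1 of 8 changed, Cdh5, which fell in both limbs, and of the adipocyte markers Cidec and Lep rose in both. Of the 8 skeletal muscle markers 0 passed with DEX in unloaded tibiae, where all 8 were below 0, with a median log2 fold change of -1.75 and 7 at an unadjusted p under 0.05. In loaded tibiae all 8 were above 0, with a median of 0.50, and 1 passed. No erythroid or megakaryocyte marker passed in either limb, out of 6 each. With plain library totals the osteoblast, chondrocyte and neutrophil calls were 7, 10 and 7 in loaded tibiae, and in unloaded tibiae 4 osteoblast, 1 osteocyte and 0 B lineage markers fell. The endothelial fall was then lost in both limbs, with 0 of 8 passing in loaded tibiae and 1 higher in unloaded tibiae, where 3 of 6 megakaryocyte markers were also higher. In bulk tissue, fewer cells of a type and less RNA per cell cannot be told apart.

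The summed osteoblast markers ranged from 30640 to 102200 CPM in vehicle-treated unloaded, 43670 to 65960 in vehicle-treated loaded, 5397 to 24670 in DEX-treated unloaded and 3421 to 16440 in DEX-treated loaded tibiae. The periosteum and tendon markers summed to 1372 to 3546, 1875 to 4247, 579 to 834 and 434 to 1091 CPM in the same order of groups, and the chondrocyte markers to 949 to 4150, 1887 to 3622, 369 to 1396 and 200 to 977 CPM. The skeletal muscle markers summed to 8620 to 37070, 4103 to 20310, 2454 to 17920 and 7186 to 22410 CPM. The only marker without a count in some libraries was the cartilage gene Matn1. The 3 highest Fstl1 libraries, at 677, 589 and 506 CPM, were also the 3 highest in periosteum and tendon markers, at 4247, 3546 and 2790 CPM. The highest Bambi library, at 71.1 CPM, was the highest in osteoblast markers, at 102200 CPM, and the lowest 2, at 15.7 and 17.8 CPM, were the lowest 2 of the fitted libraries in osteoblast markers, at 4391 and 3421 CPM. The part of cell type shares in the fall of the members was not tested.

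The receptor background moved with DEX as well. In loaded tibiae it was 228 to 885 CPM with vehicle and 1062 to 8611 CPM with DEX, without overlap. Background and DEX therefore cannot be told apart there, and a loss of calls with the covariate decides nothing about either. With this background as a covariate, 0 of the 50 members passed in loaded tibiae and 7 in unloaded tibiae. Of the latter, 3 were among the 7 named here, Gdf10, Inhba and Smoc2. Of all genes, 30 passed with the covariate in loaded tibiae, which is 0.152%, against 13.1% in unloaded tibiae. The median over the members in loaded tibiae was then -0.10 on the log2 scale. The latency genes shrank by more than 2-fold, to -0.40 for Ltbp1, -0.36 for Ltbp2 and -0.15 for Ltbp3. Acvr1 was at -0.16, Smad5 at -0.22 and Smoc1 at -0.26, Chrdl1 at -0.45, Tgfbr2 at -0.46, Tgfb3 at -0.48, Bmp3 at -0.57 and Smoc2 at -0.66. Fstl1 was at -1.15, Bambi at -0.70 and Inhbb at 0.83.

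In loaded tibiae 11 of the 14 members passed whichever library was left out, the exceptions being Inhbb, Chrdl1 and Smoc1. Calls in unloaded tibiae rested on few libraries. Leaving out DEX-treated replicate 3 left 0 members passing, against 0.633% of all genes, DEX-treated replicate 5 left 2, against 5.24%, vehicle-treated replicate 5 left 2, against 2.72%, and vehicle-treated replicate 4 left 4, against 4.26%. Out of 9 libraries left out in turn, 1 ended the call of Smoc2, 3 that of Gdf10, 4 that of Bambi, 5 those of Tgfb3 and Inhba, 6 that of Ltbp1 and 7 that of Tgfbr2.

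Loading by itself gave no member past the threshold. In vehicle-treated mice 0 of 50 passed, against 0% of 17982 genes, and 7 had an unadjusted p under 0.05, against 9.86% of all genes. DESeq2 called 1, Smoc1, against 0.784% of all genes. In DEX-treated mice 0 passed, against 0% of 22541 genes, and 2 had an unadjusted p under 0.05, against 4.25%, and DESeq2 called 0. The medians over the members were -0.05 and -0.15 on the log2 scale, beside 0.00 and 0.02 over all genes.

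Smoc1 (ENSMUSG00000021136.13, chr12:81026808-81186414, plus strand), which encodes a secreted matrix protein that antagonises BMP signalling, was the member with the lowest p for loading. Smoc1 was at 11.1, 5.22, 10.9, 10.1 and 11.3 CPM in vehicle-treated unloaded tibiae and 62.8, 14.02, 15.9, 13.2 and 34.7 CPM in loaded ones. All 5 loaded libraries were above all 5 unloaded ones, but replicate 1 and the unnumbered replicate stood well above the other 3, which lay within 5 CPM of the unloaded range. It was the only member whose loaded and unloaded vehicle groups did not overlap, against 1.3% of all genes. With CPM of plain library totals Tgfbr1 was also above, against 1.9%. The log2 fold change was 1.51 ± 0.42 (unadjusted p = 0.00328, adjusted p = 0.316) and did not pass in edgeR, whereas DESeq2 gave an adjusted p of 0.0292, and the adjusted p ran from 0.0292 to 0.708 over all alternatives. Smoc1 is also among the genes the study picked from these samples, so it is not independent evidence of a response.

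With DEX, Smoc1 was at 7.24, 12.8, 11.4 and 11.8 CPM in unloaded and 10.4, 15.4, 9.56, 9.61 and 8.76 CPM in loaded tibiae, which overlapped, and the log2 fold change of loading was -0.01 ± 0.21. No member separated the loaded from the unloaded DEX groups, against 1.16% of all genes, whereas with plain library totals Smad5 was below, against 1.33%. Between the loaded groups Smoc1 was lower with DEX by -1.28 ± 0.39 (adjusted p = 0.0367), and in unloaded tibiae its estimate was 0.22 ± 0.23. The fall in loaded tibiae was no longer past the threshold without vehicle-treated replicate 1 or the unnumbered one, or without DEX-treated replicate 1, 3, 4 or 5. The former 2 were also the highest vehicle-treated loaded libraries in periosteum and tendon markers. In summed chondrocyte markers the vehicle-treated loaded libraries were at 3416, 2153, 1887, 3622 and 2835 CPM, so that these 2 came next behind replicate 5. Part of that sum was Col11a2, a fibrillar collagen gene. Col11a2 was at 1169, 1383, 931 and 989.8 CPM in replicates 1, 2, 4 and 5 and 1285 CPM in the unnumbered library. Acan, the cartilage proteoglycan aggrecan, was at 615, 168, 231, 303 and 372 CPM in the same order. It was highest in the 2 libraries with the highest Smoc1, but it is 1 of 12 listed chondrocyte markers, picked after its values were seen. The sum over the list did not rank these libraries as Smoc1 did. That sum was highest in replicate 5, where Smoc1 was the lowest of the vehicle-treated loaded libraries. The part of these cell types in the Smoc1 values was not tested.

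No cell type marker passed for loading in either treatment. In vehicle-treated mice 9 of 10 tested chondrocyte markers were above 0, with a median log2 fold change of 1.74 and 7 at an unadjusted p under 0.05, and 7 of 8 periosteum and tendon markers were above 0, with a median of 0.49. All 8 skeletal muscle markers were below 0, with a median of -1.09. In DEX-treated mice all 10 tested chondrocyte markers were below 0, with a median of -0.44, and all 8 muscle markers above 0, with a median of 1.21. The part of these cell types in the loading results was not tested.

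Bmp3 was the second by p in vehicle-treated mice. Bmp3 was at 127, 170, 121, 154 and 196 CPM in unloaded and 104, 138, 103, 123 and 116 CPM in loaded tibiae, with 3 of 5 loaded values below the unloaded range, and the log2 fold change was -0.42 ± 0.14 (adjusted p = 0.402). Another 5 had unadjusted p under 0.05, with Inhba at 0.48 above 0 and Tgfb2 at -0.40, Id2 at -0.40, Inhbb at -0.49 and Bmpr2 at -0.24 below it. None of these 7 passed after adjustment.

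In DEX-treated mice 42 of the 50 estimates for loading were below 0, against 32 with plain library totals and 27 with the receptor background as covariate. Bambi was at 27.7, 32.3, 24.99 and 25.01 CPM in unloaded and 22.8, 25.5, 21.8, 17.8 and 15.7 CPM in loaded DEX-treated tibiae, with a log2 fold change of -0.41 ± 0.16 (unadjusted p = 0.0256, adjusted p = 0.733). Tgfb2 (ENSMUSG00000039239.14, chr1:186622792-186705989, minus strand) was at 88.6, 112, 77.5 and 87.6 CPM and 68.5, 89.2, 69.8, 41.9 and 50.9 CPM, with -0.51 ± 0.21 (unadjusted p = 0.0309, adjusted p = 0.733). Both pairs of groups overlapped, and replicates 4 and 5 of the loaded group were the lowest libraries for both genes. Of the 5603 genes at or above the members' median level, 4802 likewise had estimates below 0.

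**Figure D4:**
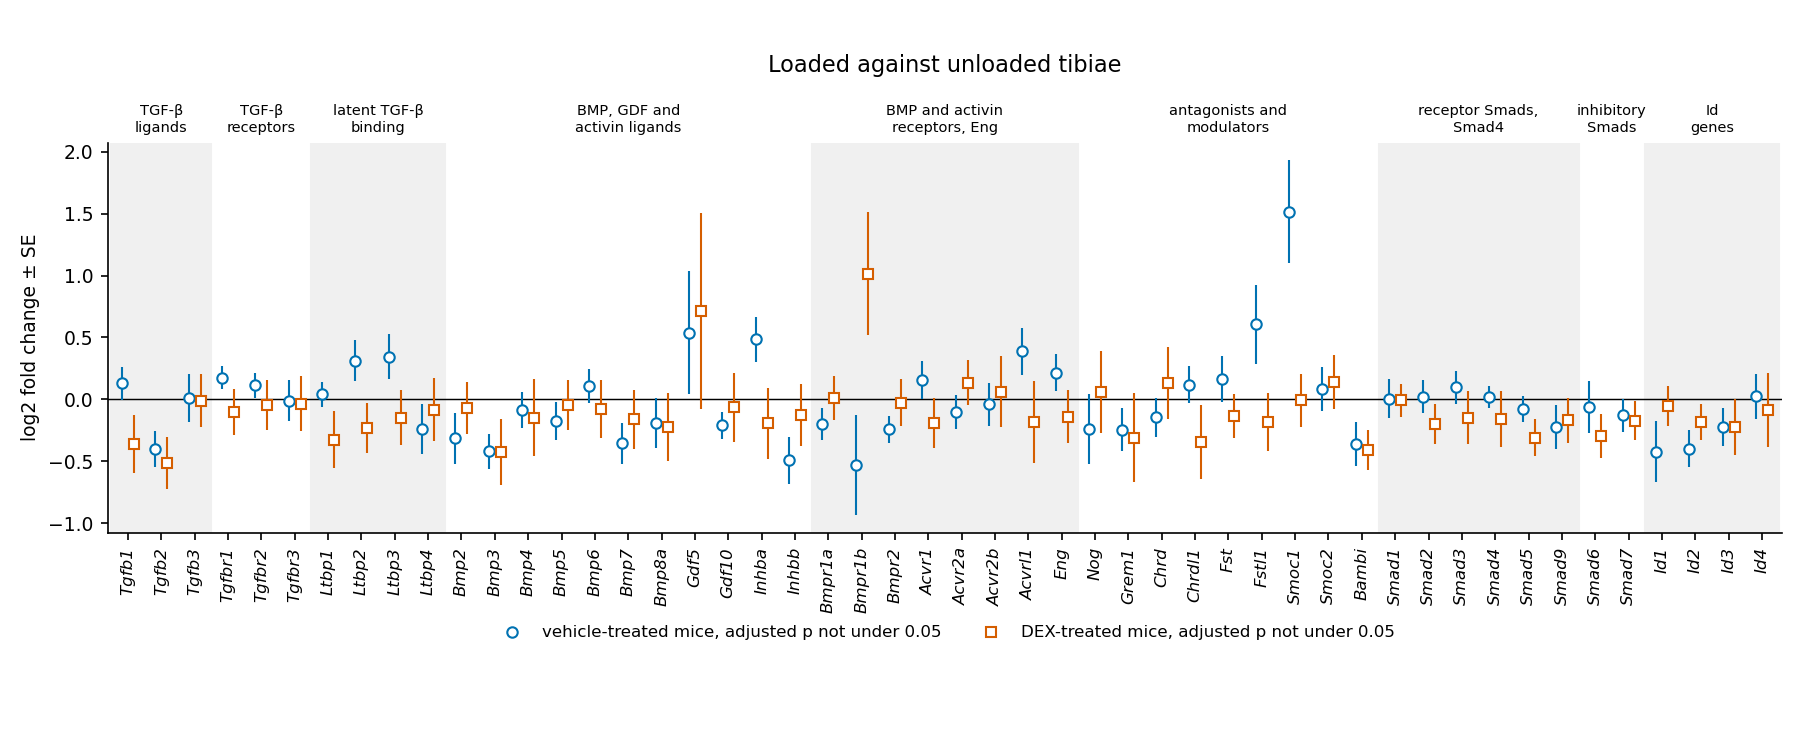
Log2 fold change of loaded against unloaded tibiae with its SE (y axis) for the 50 members by role, in vehicle-treated (circles) and DEX-treated (squares) mice. Every symbol is open because 0 members had an adjusted p under 0.05, and Smoc1 in vehicle-treated mice is the highest at 1.51.

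The interaction asked whether DEX altered the effect of loading. It passed for 0 of 50 members, against 0% of 23653 genes, and 2 had an unadjusted p under 0.05, against 12.1%, while DESeq2 called 0, against 0.211%. Smoc1 had an interaction of -1.54 ± 0.51 on the log2 scale (unadjusted p = 0.00684, adjusted p = 0.362). Bmpr1b (ENSMUSG00000052430.15, chr3:141837136-142169425, minus strand), a type I BMP receptor of cartilage, had 1.53 ± 0.65 (unadjusted p = 0.0291, adjusted p = 0.398). Bmpr1b was at 3.82, 2.61, 5.12, 1.45 and 1.13 CPM in vehicle-treated unloaded, 2.60, 1.28, 2.26, 1.72 and 2.09 CPM in vehicle-treated loaded, 2.12, 1.35, 0.492 and 1.70 CPM in DEX-treated unloaded and 2.36, 1.75, 2.21, 5.88 and 2.41 CPM in DEX-treated loaded tibiae. Its highest value was in replicate 4 of the DEX-treated loaded group, the library with the lowest total and the highest receptor background. For the interaction all 11 tested chondrocyte markers were below 0, with a median of -2.28 and 9 at an unadjusted p under 0.05, and all 8 skeletal muscle markers were above 0, with a median of 2.29 and 8 at an unadjusted p under 0.05, and none passed. Their part in the estimates for Smoc1 and Bmpr1b was not tested.

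**Figure D5:**
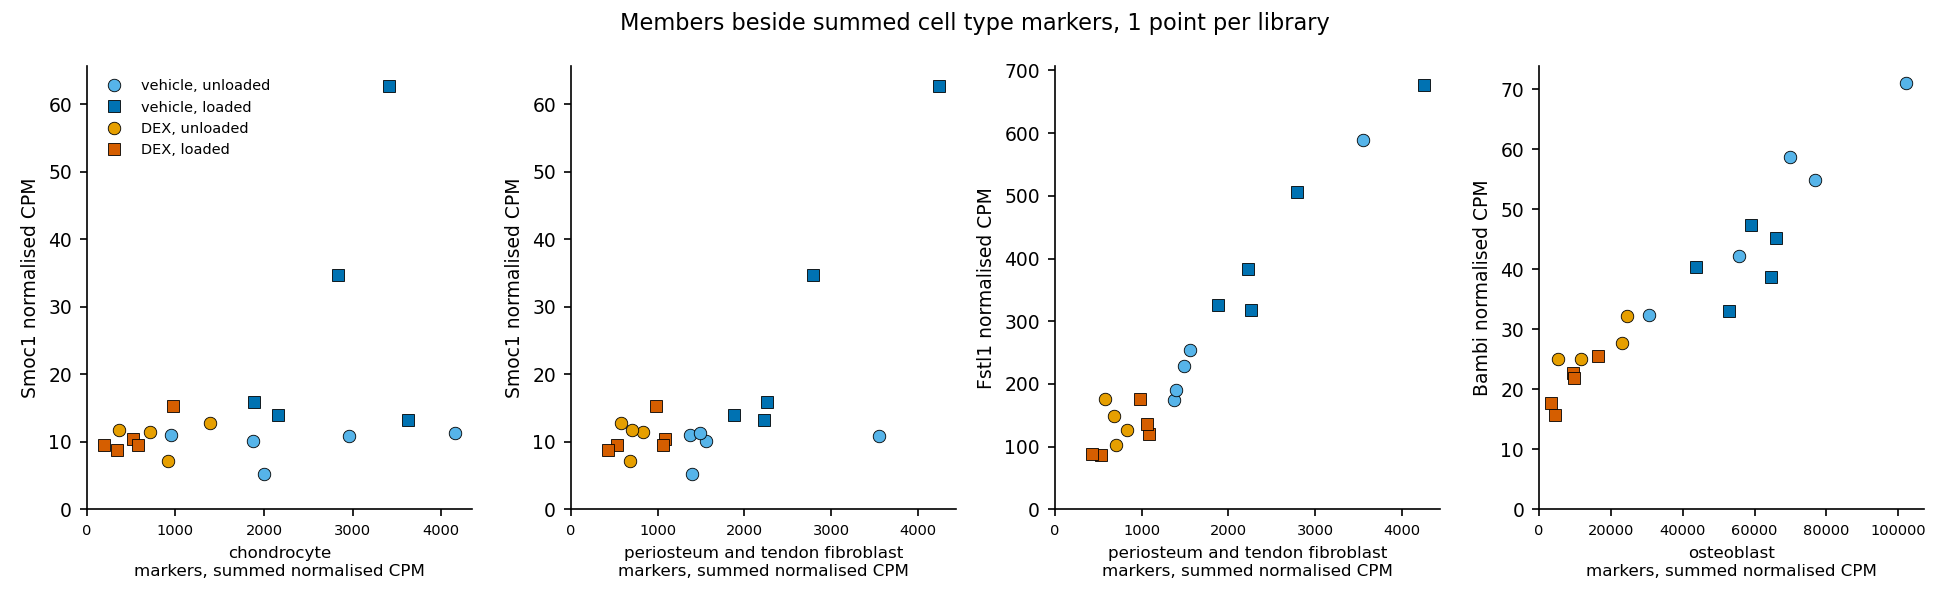
TMM-normalised CPM of Smoc1, Fstl1 and Bambi (y axes) against the summed CPM of chondrocyte, periosteum and tendon or osteoblast markers (x axes), 1 point for each of the 19 fitted libraries, with pairs chosen after the values were seen. Fstl1 is highest, at 677 and 589, where the periosteum and tendon sum is 4247 and 3546, and Smoc1 at 62.8 and 34.7 stands apart from the other libraries.

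Other genes of the pathway were counted from a list of 69 that are not members. In loaded tibiae DEX raised 7 and lowered 15 of 59 tested, which is 37.3% beside 21.3% of all genes, of which 12.9% rose and 8.35% fell. With plain library totals it was 8 higher and 9 lower, which is 28.8% beside 24.5% of all genes. All 4 that passed among the genes of latent TGF-β activation and storage fell, and these included Fbn2 (-3.39 ± 0.36, adjusted p = 0.000344) and Fbn1 (-1.94 ± 0.25, adjusted p = 0.00067), the fibrillins that anchor latent complexes, and Bmp1 (-1.53 ± 0.24, adjusted p = 0.00224), a procollagen proteinase that also releases BMPs from chordin. The other 12 that fell included Itgav, the Smad regulators Smurf1, Skil, Zfyve16, Pmepa1 and Ldlrad4, the antagonists Sost, Twsg1 and Dcn, the co-receptor Cd109 and the target gene Dlx3. The 7 that rose included Bmp10, Inhbe, Acvr1b, Acvr1c, Cer1 and Wfikkn2, and the receptor background was higher in the same libraries.

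In unloaded tibiae 6 of 60 tested fell and 0 rose, which is 10% beside 6.84% of all genes, whereas with plain library totals 3 were lower and 7 higher, which is 16.7% beside 16.8%. Fbn2 (-2.29 ± 0.33, adjusted p = 0.00606), the extracellular BMP modulator Twsg1 (-0.81 ± 0.13, adjusted p = 0.00838) and the TGF-β-binding proteoglycan Dcn (-1.07 ± 0.18, adjusted p = 0.00938) had the lowest adjusted p, and the others were Cd109, Skil and Ldlrad4. All 6 had also fallen in loaded tibiae, and the share of all genes that fell in both was not computed. Loading passed for 0 of 56 tested in vehicle-treated and 0 of 63 in DEX-treated mice, and the interaction for 0 of 67.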

How the data were processed

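RNA was sequenced from mouse tibiae with a stranded total RNA kit. The authors aligned reads to GRCm38 with STAR 2.7.10a and deposited RSEM 1.2.28 expected counts per gene, not scaled, for 20 libraries, and 10.6% to 14.0% of each library's values above 0 were not whole. These were rounded, and genes were named through the GENCODE M21 annotation of the reference used here (53229 identifiers matched with their version and 54409 without it). Library totals of 4641437 to 13032018 counts limit the precision of low genes such as Gdf5. A column numbered 6 in each vehicle group matched no sample label and was used as an unnumbered replicate. A DEX data set numbered 4 was removed by the authors without naming the limb. Fewer unloaded than loaded DEX values are plotted in the study, so DEX-treated unloaded replicate 4 was left out. The study counts its replicates as mice, with the opposite limb as control, but no label ties a library to a mouse.

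Each comparison used edgeR 4.0.16 in R 4.3.3 (filterByExpr, TMM, quasi-likelihood F test) on the groups compared, with Benjamini-Hochberg adjustment over all genes tested and a threshold of 0.05. CPM of members and markers are counts per 1000000 of the library total times its TMM factor over 20 libraries, and the receptor background is per 1000000 of the plain total. Alternatives were DESeq2 1.42.0, DESeq2 size factors, plain library totals, other count filters, a replicate block, other sets of libraries, all 4 groups in 1 model and the receptor background as covariate. The code was tested on simulated data. The members and gene lists were chosen with earlier results of these data known. Values in every library are given for members called in a comparison (the 5 largest rises and falls where more than 10 were called) or, where none was, for the 2 with the lowest p. Of other pathway genes, the 3 with the lowest adjusted p are given with values. Promoter windows were taken from RefSeq (GRCm38.p6), 250 bases before the start. Some genes of the wider pathway list are counted but not reported here by name.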

Additional observations from a re-analysis of the deposited data

Results flagged for a closer look

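In the 15 members given by library, 60 groups were examined for a library whose distance to its nearest neighbour took up most of the group's range (Dixon's criterion), of which chance gives about 1 in 20, and 7 were found. Fstl1, Tgfb3 and Smoc2 each had an isolated highest value in vehicle-treated unloaded replicate 4, at 589, 134 and 102 CPM beside 175 to 255, 64.9 to 84.4 and 61.3 to 68.7 CPM in the other libraries of that group, and this library also had the highest periosteum and tendon markers of its group, 3546 beside 1372 to 1559 CPM in the others.

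Smoc1 had an isolated lowest value of 5.22 CPM in vehicle-treated unloaded replicate 2, beside 10.1 to 11.3 CPM in the other libraries, and an isolated highest value of 15.4 CPM in DEX-treated loaded replicate 2, beside 8.76 to 10.45 CPM. Inhbb was isolated at its lowest, 5.01 CPM, in vehicle-treated loaded replicate 4, beside 8.83 to 9.39 CPM. Bmpr1b was isolated at its highest, 5.88 CPM, in DEX-treated loaded replicate 4, beside 1.75 to 2.41 CPM, and that library had the highest receptor background, 8611 CPM.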

How the results depend on the processing

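The count of members passing in loaded tibiae with DEX was 14 and lay between 10 and 21 under most alternatives, in which 11.7% to 28.6% of all genes passed. It was 25 with all 4 groups in 1 model (against 35.7% of all genes), 7 with plain library totals (24.5%) and 0 with the receptor background as covariate (0.152%), beside 21.3% where it was 14. That background did not overlap between the loaded groups, so the covariate cannot be told apart from DEX there. Without 1 library at a time the count ran from 11 to 20 (12.7% to 28%). In unloaded tibiae the count of 7 became 17 with DESeq2 (13.8% of all genes), 11 with all 4 groups in 1 model (6.75%) and 18 with all 20 libraries (15.2%), beside 6.84% where it was 7, which is also the fit with DEX-treated loaded replicate 4 left out in place of the unloaded one, and without 1 library at a time it ran from 0 to 9 (0.633% to 9.6%). For loading in vehicle-treated mice DESeq2 gave 1 member in place of 0 (0.784% of all genes). Loading in DEX-treated mice and the interaction gave 0 under every alternative run. The cause of these shifts was not tested.

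With the replicate block the DEX counts were 10 in loaded (11.7% of all genes) and 0 in unloaded tibiae (2.63%), and 0 for loading in both treatments. Deviations of same-numbered loaded and unloaded libraries correlated at -0.302 to 0.245 in vehicle-treated and 0.02 to 0.37 in DEX-treated mice. In DEX-treated mice replicates 1, 2 and 5 were at 0.367, 0.354 and 0.347 and replicate 3 at 0.023. In 1 of 8 same-numbered pairs each library was the other's best match. With so few pairs this cannot decide whether the numbers mark mice. The main fits did not use them because no label ties a number to a mouse, so any pairing of limbs is ignored there. Leaving the count filter out moved the median over all genes to 0.77 in loaded and 0.20 in unloaded tibiae with DEX, and fold changes in that setting are relative to it.

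Over the named members and comparisons, 429 of the alternative values kept their direction and their side of the threshold, 98 kept the direction but no longer passed, 1 newly passed and 0 changed sign. These members were picked by their p in the same libraries, and the alternatives refit mostly the same data, so the unchanged signs are no independent support. For the loading and interaction comparisons, keeping the side of the threshold means that a member still did not pass. Depth limits Gdf5 and Bmpr1b most.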

Other observations

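The DEX-treated unloaded library left out of the fits, replicate 4, held Tgfb3 at 39.4, Tgfbr2 at 111, Ltbp1 at 87.2, Gdf10 at 21.8, Smoc2 at 35.4 and Bambi at 17.5 CPM, each below all 5 vehicle-treated unloaded libraries, and Inhba at 75.2 CPM, above all of them. Its Fstl1 was 165 CPM, also below that vehicle range, and its Inhbb was 12.8 CPM, within it. Osteoblast markers summed to 7728 CPM in this library and neutrophil markers to 13820 CPM, both inside the ranges of the other DEX-treated unloaded libraries. Outside those ranges lay the osteocyte markers, at 891.6 CPM beside 1007 to 1672 CPM, and the skeletal muscle markers, at 1505 CPM beside 2454 to 17920 CPM. The glucocorticoid-induced genes were above theirs, at 438.5 CPM beside 253.4 to 411 CPM. The remaining marker sums lay inside.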
